A study of Mus musculus with 3 samples.

Results

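The calcium handling genes of the mouse heart were followed in spatial transcriptome libraries of 3 heart sections, 1 from each group. The 10 genes were chosen by symbol, as the genes whose products carry, store, release or regulate calcium in the cardiomyocyte, and each was found once among the 32285 genes of the files: Atp2a2, Pln, Sln, Ryr2, Casq2, Hrc, Trdn, Jph2, Cacna1c and Slc8a1. A Visium slide captures RNA in place: every barcoded spot reports how many transcripts, counted as unique molecular identifiers (UMIs), came from the patch of tissue over it, and such a patch usually mixes cell types. All mice were C57BL/6, supplied at 8 weeks of age, and received an oral gavage for 7 days before the operation. The sham mouse was given vehicle and was operated on without ligation of the left anterior descending coronary artery. The I/R mouse was given vehicle, and its artery was ligated for 30 min and then reperfused for 24 h. The SBP mouse was given Shexiang Baoxin Pill, a preparation of traditional Chinese medicine labelled MUSKARDIA, and then underwent the same ischemia and reperfusion. The cryosections were 10 um thick. With 1 section per group a difference between groups cannot be told apart from a difference between 2 mice or 2 cuts through the heart. No test between groups was possible, and the 95% intervals of levels and ratios cover counting error only. Those of shares of spots take the spots as independent draws, though spots of 1 section are not replicates. Levels are not divided by transcript length, so each gene is compared with itself and not with the others.

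Each heartbeat is set off by a pulse of calcium. Calcium that enters the cardiomyocyte through the L-type channel (Cacna1c) opens the ryanodine receptor (Ryr2), through which the sarcoplasmic reticulum, the internal calcium store, releases far more. Calsequestrin (Casq2) and the histidine-rich calcium-binding protein (Hrc) bind calcium inside the store, triadin (Trdn) ties them to the ryanodine receptor, and junctophilin (Jph2) holds the store close to the cell membrane. For relaxation the pump SERCA2 (Atp2a2) returns calcium to the store, restrained by phospholamban (Pln) and, mainly in atria, by sarcolipin (Sln), while the sodium-calcium exchanger (Slc8a1) moves the rest out of the cell. Changes in this cycle are a well-known feature of ischemic and failing hearts.

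The genes are spread over the genome, and the positions are those of GENCODE on GRCm38. Atp2a2 lies on chromosome 5 (122453513 to 122502225, minus strand), Hrc on chromosome 7 (45335290 to 45338974, plus strand) and Sln on chromosome 9 (53850164 to 53854560, plus strand). Pln and Trdn both lie on chromosome 10, Pln from 53337667 to 53345987 and Trdn from 33080554 to 33476709, on the plus strand. Jph2 lies on chromosome 2 (163336242 to 163397993, minus strand), Casq2 on chromosome 3 (102086415 to 102146514, plus strand) and Cacna1c on chromosome 6 (118587240 to 119196418, minus strand). Ryr2 lies on chromosome 13 (11553102 to 12106945, minus strand) and Slc8a1 on chromosome 17 (81373105 to 81738377, minus strand).

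The 250 bases before the start site are shown for 5 genes, because the results separate them: Hrc, Pln and Casq2 were lower in the spots of the I/R and SBP sections rich in the stress gene Ankrd1, while Jph2 and Slc8a1 were not lower there by as much. The sequences are from RefSeq on GRCm38.p6 and run 5′ to 3′ on the gene's own strand, with motif matches in capitals. They come from chr7:45335019-45335268 (plus strand) for Hrc, chr10:53337436-53337685 (plus strand) for Pln, chr3:102086165-102086414 (plus strand) for Casq2, chr2:163397994-163398243 (minus strand) for Jph2, at the upstream one of its RefSeq start sites, and chr17:81738388-81738637 (minus strand) for Slc8a1. Promoters of Ryr2 and Cacna1c were searched too, and those of Atp2a2, Sln and Trdn were not analysed here.
Hrc: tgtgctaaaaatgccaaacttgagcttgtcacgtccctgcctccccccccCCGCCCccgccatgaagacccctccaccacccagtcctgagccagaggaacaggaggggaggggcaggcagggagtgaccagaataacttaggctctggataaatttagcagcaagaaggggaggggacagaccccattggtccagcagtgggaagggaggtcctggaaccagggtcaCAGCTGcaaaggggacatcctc
Pln: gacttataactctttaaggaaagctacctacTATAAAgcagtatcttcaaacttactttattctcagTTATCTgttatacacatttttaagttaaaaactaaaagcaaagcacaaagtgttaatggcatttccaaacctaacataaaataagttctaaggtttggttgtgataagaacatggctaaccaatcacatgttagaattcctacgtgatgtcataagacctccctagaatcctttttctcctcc
Casq2: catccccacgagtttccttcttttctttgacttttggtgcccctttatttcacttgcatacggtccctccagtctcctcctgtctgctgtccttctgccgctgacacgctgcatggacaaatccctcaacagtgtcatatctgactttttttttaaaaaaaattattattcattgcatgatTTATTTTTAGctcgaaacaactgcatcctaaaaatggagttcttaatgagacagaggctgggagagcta
Jph2: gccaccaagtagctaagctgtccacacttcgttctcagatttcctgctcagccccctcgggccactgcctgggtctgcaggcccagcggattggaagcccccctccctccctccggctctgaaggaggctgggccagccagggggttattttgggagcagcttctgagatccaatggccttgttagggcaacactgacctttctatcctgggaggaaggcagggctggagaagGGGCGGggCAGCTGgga
Slc8a1: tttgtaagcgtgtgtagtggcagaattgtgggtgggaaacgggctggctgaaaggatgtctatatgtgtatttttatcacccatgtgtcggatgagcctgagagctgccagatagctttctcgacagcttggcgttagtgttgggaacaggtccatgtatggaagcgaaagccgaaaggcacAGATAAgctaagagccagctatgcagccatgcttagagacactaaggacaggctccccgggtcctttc

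Both strands were searched for the TATA box (TATAAA), the GATA motif (AGATAA), the TEAD motif (CATTCC), an E-box (CAGCTG), the GC box (GGGCGG), the MEF2 site and the CArG box. Hrc and Jph2 share an E-box close to the start, at bases -22 to -17 in Hrc and -9 to -4 in Jph2, and each holds a GC box as well, as does Cacna1c. Pln and Slc8a1 share a GATA motif, at -183 to -178 and at -68 to -63. Pln alone of the 7 genes searched holds the string TATAAA, at -219 to -214, and Casq2 alone a MEF2 site, at -69 to -60. Whether TATAAA acts as a TATA box at that distance from the start was not tested. Over all 32851 promoter windows of this length, 13.0% hold the E-box, 32.7% the GC box, 9.99% the GATA motif, 12.4% the string TATAAA and 2.92% the MEF2 site, while the TEAD motif (12.6% of windows) and the CArG box (1.47%) were in none of the 7 genes. By shared motifs Hrc pairs with Jph2 and Pln with Slc8a1, but the promoters shown were picked by the results. Whether these motifs have a part in the levels of the genes was not tested.

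Over the spots kept (2234 in the sham section, 2082 in I/R and 1960 with SBP) the sections held 25118258, 30238530 and 21631280 UMIs. Mitochondrial genes took 44.3% to 48.6% of them, lowest in I/R. Markers fixed for the heart muscle cell were present, with 9 of 9 cardiomyocyte reference genes (contractile genes such as Myh6 and Tnnt2) detected in every section, at a summed 41606 counts per 1000000 UMIs (CPM) in the sham section, 30869 in I/R and 39561 with SBP. The macrophage list summed to 617 CPM, 1156 and 685 in the same order, and the neutrophil list to 28.3, 241 and 118. Of 8 macrophage genes 5 were higher past 0.5 on the log2 scale in I/R than in sham, as were 3 of the 3 neutrophil genes with enough UMIs, where 26.3% of all genes were higher by the same rule. The other lists ranged over the sections from 1573 to 1894 CPM (fibroblast), 894 to 949 (endothelial), 138 to 335 (smooth muscle), 283 to 383 (pericyte) and 2886 to 4105 (blood). The atrial genes Myl7 and Bmp10 had at most 4 UMIs in a section, while the atrial list summed to 482, 1162 and 1402 CPM, almost all of it from Nppa, a natriuretic peptide gene that ventricles also express under strain. Of the spot barcodes, 1205 to 1565 were shared by any 2 sections, as each slide area carries the same barcode set.

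Atp2a2, which encodes the pump that refills the store, was lower in both injured sections than in sham. There were 4496 CPM in the sham section (95% interval 4469 to 4522), 3258 in I/R (3238 to 3279) and 3441 with SBP (3417 to 3466). The I/R section thus held 72.5% of the sham level, and SBP stood a little above I/R. Its inhibitor Pln was less reduced, at 2180 CPM in the sham section, 1790 in I/R and 2024 with SBP. Sln, the other inhibitor of the pump, was all but absent: 3 UMIs in sham and none in I/R or SBP, where a count of 0 allows up to 0.0992 and 0.139 CPM (3 counts of a section's total). It passed no minimum on UMIs, so the counts of genes below rest on the other 9.

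Hrc, the calcium buffer of the store that also binds to triadin and the pump, showed the widest gap of the 10 genes. It stood at 541 CPM in the sham section (532 to 550), 311 in I/R (305 to 318) and 383 with SBP (375 to 392). Casq2, the main buffer of the store, was at 342 CPM in the sham section, 264 in I/R (258 to 269) and 259 with SBP (252 to 266), so that the 2 injured sections did not differ beyond counting error. Over whole sections the buffers therefore parted in SBP, where Hrc stood above I/R and Casq2 did not. That did not hold in every kind of spot, as given below.

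Trdn, the anchor of the release unit, was at 202 CPM in the sham section (196 to 207), 128 in I/R (124 to 132) and 175 with SBP (170 to 181). Jph2, the tether of the junction, was at 170 CPM in the sham section, 125 in I/R and 155 with SBP. The release channel itself varied less: Ryr2 was at 179 CPM in the sham section (174 to 185), 152 in I/R (148 to 157) and 157 with SBP (152 to 163), with overlapping intervals in I/R and SBP. At the cell membrane, Slc8a1 was at 153 CPM in the sham section (148 to 158), 126 in I/R (122 to 130) and 161 with SBP (156 to 166). Cacna1c, which rests on 995 to 1109 UMIs a section, was at 44.2 CPM in the sham section (41.6 to 46.8), 36.3 in I/R (34.2 to 38.5) and 46.0 with SBP (43.2 to 48.9). For both membrane transporters the order was I/R lowest, with intervals of sham and SBP that overlap.

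**Figure D1:**
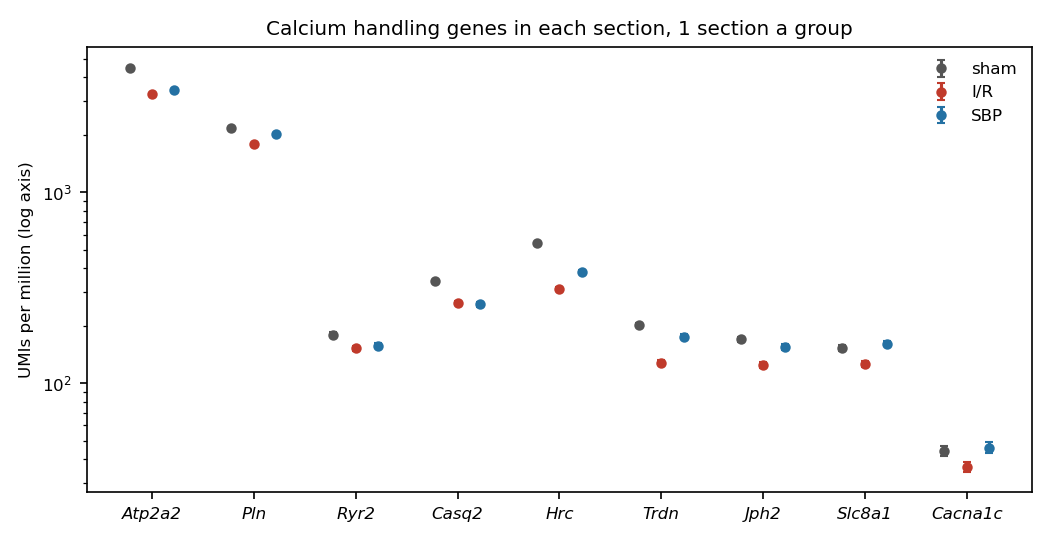
CPM (log axis) of 9 calcium handling genes in the sham, I/R and SBP sections, with 95% Poisson intervals of 1 section a group, not divided by transcript length. Each gene was lowest in I/R except Casq2, at 264 CPM in I/R and 259 with SBP.

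The first comparison asked how the genes stood after ischemia and reperfusion. All 9 genes with enough UMIs were lower in I/R than in sham, by log2 ratios from -0.24 (Ryr2) to -0.80 (Hrc, interval -0.84 to -0.76). Those past 0.5 on the log2 scale were Hrc and Trdn (-0.66, interval -0.72 to -0.60), so 2 of 9 were lower by that rule, against 3.66% of all 9640 genes, and 0 were higher, against 26.3% of all genes. Atp2a2 (-0.46), Jph2 (-0.45) and Casq2 (-0.37) came next, followed by Pln, Slc8a1 and Cacna1c at -0.28 each. The median of the 9 was -0.37, while that of all genes was 0.24 and that of the cardiomyocyte reference genes -0.45. Ranked from the lowest of 9640 genes, Hrc came 67th, Trdn 155th and Atp2a2 426th.

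The denominator matters for these values. Without mitochondrial UMIs every ratio of this comparison was lower by 0.12 on the log2 scale, and 4 genes passed 0.5, with Atp2a2 at -0.58 and Jph2 at -0.56 beside Hrc (-0.91) and Trdn (-0.77). TMM factors, which centre all genes near 0, took 7 genes past 0.5, and median-of-ratios factors 6. Of all genes 6.42% were lower and 19.0% higher without mitochondrial UMIs, 10.3% and 13.7% under TMM, and 10.1% and 13.9% with median-of-ratios factors. Relative to the UMIs of the cardiomyocyte reference genes, only Hrc (-0.37, interval -0.40 to -0.33), Trdn (-0.23, -0.29 to -0.17) and Atp2a2 (-0.03, -0.05 to -0.02) had intervals below 0. Jph2 was at -0.02 (-0.08 to 0.05), and the other 5 were higher by 0.06 to 0.19. By this denominator 66.0% of all genes were higher past 0.5 and 0.384% lower. The median of all genes was 0.67, so these 5 also stood below the typical gene. Fewer cardiomyocytes under the spots and less of a transcript in each cardiomyocyte cannot be told apart in these data, and the macrophage and neutrophil lists, higher in I/R, moved with the result. Their part in it was not tested.

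The second comparison asked how the section after SBP stood against I/R with vehicle. Trdn was higher in SBP by a log2 ratio of 0.45 (0.39 to 0.52), Slc8a1 by 0.35 (0.29 to 0.42), Cacna1c by 0.34 (0.22 to 0.47), Jph2 by 0.32 (0.25 to 0.38) and Hrc by 0.30 (0.26 to 0.34). The pump and its inhibitor differed less, with Pln at 0.18 (0.16 to 0.20) and Atp2a2 at 0.08 (0.07 to 0.09). Ryr2 (0.05, -0.01 to 0.11) and Casq2 (-0.03, -0.08 to 0.02) had intervals that include 0. No gene of the 9 passed 0.5 in either direction, where 1.75% of all 9540 genes were higher and 14.4% lower. The median of the 9 was 0.30, of all genes -0.16 and of the cardiomyocyte reference genes 0.29. Under TMM, 7.97% of all genes were lower and 4.51% higher, and Trdn (0.60) and Slc8a1 (0.50) passed 0.5.

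Relative to the cardiomyocyte reference UMIs the picture of SBP over I/R was another. Atp2a2 (-0.28), Pln (-0.18), Ryr2 (-0.31) and Casq2 (-0.39) were then lower in SBP, Hrc was at -0.06 (-0.10 to -0.02), Jph2, Slc8a1 and Cacna1c had intervals that include 0, and only Trdn was higher (0.10, interval 0.03 to 0.16). None of the 9 genes was past 0.5 in either direction by this denominator, where 52.2% of all 9540 genes were lower past 0.5 and 0.314% higher. The median was then -0.51 over all genes and -0.06 over the 9.

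Against sham, the SBP section was lower in Hrc by a log2 ratio of -0.50 (-0.54 to -0.46), in Casq2 by -0.40 (-0.45 to -0.35) and in Atp2a2 by -0.39 (-0.40 to -0.37). Ryr2 (-0.19), Trdn (-0.20), Jph2 (-0.13) and Pln (-0.11) were nearer to sham. Slc8a1 was at 0.08 (0.01 to 0.14) and Cacna1c at 0.06 (-0.07 to 0.18). Hrc was just short of 0.5, so that 0 genes were past it in either direction, where 2.02% of all 8873 genes were lower and 5.26% higher. Without mitochondrial UMIs Hrc was at -0.56, and 2.79% of all genes were lower and 3.8% higher, against 2.89% and 3.56% under TMM. I/R over sham and SBP over sham share the sham section, and SBP over I/R shares its sections with both.

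**Figure D2:**
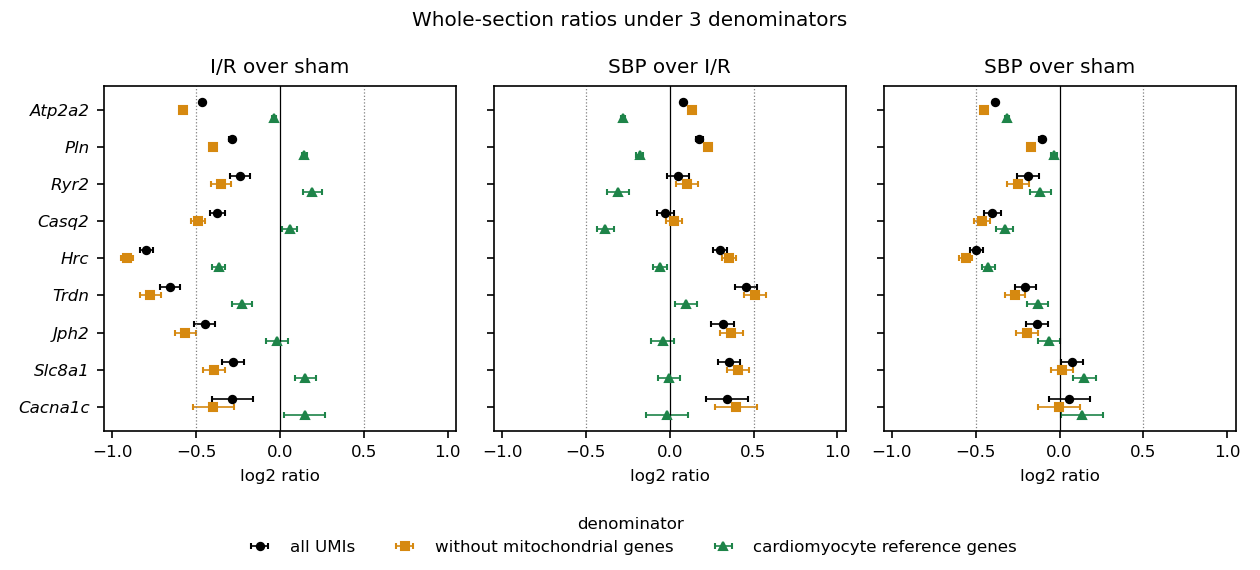
Log2 ratios of 9 calcium handling genes for I/R over sham, SBP over I/R and SBP over sham under 3 denominators, with 95% counting intervals. In I/R over sham all genes lie below 0 per all UMIs, and 5 lie above 0 relative to the cardiomyocyte reference genes. Under that last denominator the median over all 9640 genes was 0.67.

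The UMIs of 2 genes can be set against each other with no denominator at all, a reading chosen after the values were seen. There were 0.485 Pln UMIs per Atp2a2 UMI in the sham section (0.480 to 0.490), 0.549 in I/R (0.544 to 0.555) and 0.588 with SBP (0.581 to 0.595). The inhibitor thus took a larger share beside the pump in both injured sections, and most in SBP. Slc8a1 had 34.0 UMIs per 1000 UMIs of Atp2a2 in the sham section (32.9 to 35.1), 38.7 in I/R (37.4 to 39.9) and 46.8 with SBP (45.2 to 48.4). Jph2 had 0.949 UMIs per Ryr2 UMI in the sham section (0.910 to 0.990), 0.820 in I/R (0.785 to 0.856) and 0.985 with SBP (0.939 to 1.03). Casq2 had 1.91 per Ryr2 UMI in the sham section (1.84 to 1.98), 1.73 in I/R (1.67 to 1.80) and 1.64 with SBP (1.57 to 1.72).

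The sections are not uniform, and the genes were next followed by Ankrd1, which encodes a cardiac ankyrin repeat protein known to increase in strained and injured heart muscle. Spots with more Ankrd1 than the 95th percentile of the sham spots, 27.0 UMIs per 10000, were called Ankrd1-high. These were 112 spots in the sham section (5.01%, set by the rule), 479 in I/R (23.0%, exact binomial interval 21.2% to 24.9%) and 326 with SBP (16.6%, 15.0% to 18.4%). The cardiomyocyte reference genes took 3.10% of UMIs in Ankrd1-high and 4.25% in other spots of sham, 2.45% and 3.32% in I/R, and 3.17% and 4.13% in SBP. Mitochondrial genes took less in Ankrd1-high than in other spots in each section, for instance 40.6% against 45.7% in I/R. The injury and strain genes moved with the split: in I/R a list of 6 injury region genes summed to 2361 CPM in Ankrd1-high and 1641 in other spots, the atrial list, mostly Nppa, to 2452 and 684, and the macrophage list to 1221 and 1131. The part of these lists in the results by Ankrd1 was not tested.

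Hrc had the lowest ratio of the 9 genes in all 3 sections. Its level was 325 CPM in Ankrd1-high and 558 in other spots of sham, 156 and 369 in I/R, and 223 and 419 in SBP. The log2 ratios were -0.78 (-0.90 to -0.66), -1.24 (-1.33 to -1.16) and -0.91 (-1.01 to -0.81), so that the sham section, which had no ischemia, showed it too. Ranked from the lowest, Hrc came 124th of 6660 genes in sham, 26th of 8072 in I/R and 62nd of 6364 in SBP. Relative to the cardiomyocyte reference UMIs of the same spots it was still lower, by -0.32, -0.80 and -0.53. The other 8 genes had no such ratio below 0 in sham.

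The pump and its inhibitor differed between sham and the injured sections. Atp2a2 was at 4356 CPM in Ankrd1-high and 4507 in other spots of sham, a log2 ratio of -0.05 (-0.08 to -0.02). In I/R it was at 2407 and 3573 CPM (-0.57, interval -0.59 to -0.55), and in SBP at 2666 and 3613 CPM (-0.44, -0.47 to -0.41). Pln followed with ratios of -0.25 in the sham section, -0.63 in I/R (-0.67 to -0.60) and -0.48 with SBP (-0.52 to -0.44). For both genes the 3 intervals do not overlap. Relative to the cardiomyocyte reference UMIs the gaps were smaller in the injured sections. Atp2a2 then had 985 UMIs per 10000 in Ankrd1-high and 1075 in other spots of I/R, and 840 and 875 in SBP. Pln had 522 and 596 in I/R, and 482 and 517 in SBP. In sham both genes were then higher in Ankrd1-high spots, Atp2a2 at 1407 and 1062 and Pln at 600 and 520. Per all UMIs, the intervals of I/R and SBP overlapped without the spots high in the injury region genes, a split described below. Atp2a2 was then at -0.36 (-0.39 to -0.33) in I/R and -0.38 (-0.42 to -0.35) with SBP. Pln was at -0.38 (-0.42 to -0.34) in I/R and -0.43 (-0.48 to -0.38) with SBP.

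Casq2 was lower in Ankrd1-high spots by -0.38 in the sham section (-0.51 to -0.24), -0.50 in I/R (-0.58 to -0.42) and -0.52 with SBP (-0.63 to -0.41), 3 intervals that overlap. Trdn was lower by -0.38, -0.31 and -0.53, again with overlapping intervals, and Ryr2 by -0.06, -0.21 and -0.31. Overlap of separate intervals does not show that the ratios of the sections were equal. Jph2, in contrast, was at 133 CPM in Ankrd1-high and 121 in other spots of I/R (0.14, interval 0.03 to 0.24), at 154 and 155 CPM in SBP (-0.01, -0.14 to 0.12), and lower beyond its interval only in sham (-0.21, -0.39 to -0.03). Slc8a1 was at 128 and 155 CPM in sham (-0.27, -0.46 to -0.08), at 121 and 128 CPM in I/R (-0.07, -0.18 to 0.03), and at 177 and 158 CPM in SBP (0.17, 0.04 to 0.29). Without mitochondrial UMIs the ratio of Jph2 in I/R was 0.01 (-0.10 to 0.11) and that of Slc8a1 in SBP 0.09 (-0.03 to 0.21), so neither was then separated from 0. Cacna1c had ratios of 0.26 in the sham section (-0.06 to 0.56), -0.29 in I/R (-0.50 to -0.09) and -0.05 with SBP (-0.30 to 0.18).

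Counted by the 0.5 rule, Ankrd1-high spots were lower in 1 of 9 genes in sham (Hrc), where 4.68% of all genes were lower and 29.7% higher. They were lower in 4 in I/R (Hrc, Pln, Atp2a2 and Casq2), where 3.99% of all genes were lower and 18.2% higher. In SBP they were lower in 3 (Hrc, Trdn and Casq2), where 4.68% of all genes were lower and 18.7% higher. None of the 9 was higher in any section. The 4 genes of I/R became 1 (Hrc) when Ankrd1 was taken per 10000 UMIs without mitochondrial genes to choose the spots, and 1 relative to the cardiomyocyte reference UMIs. In SBP 5 passed without mitochondrial UMIs. The shares of all genes were not computed under these alternatives.

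**Figure D3:**
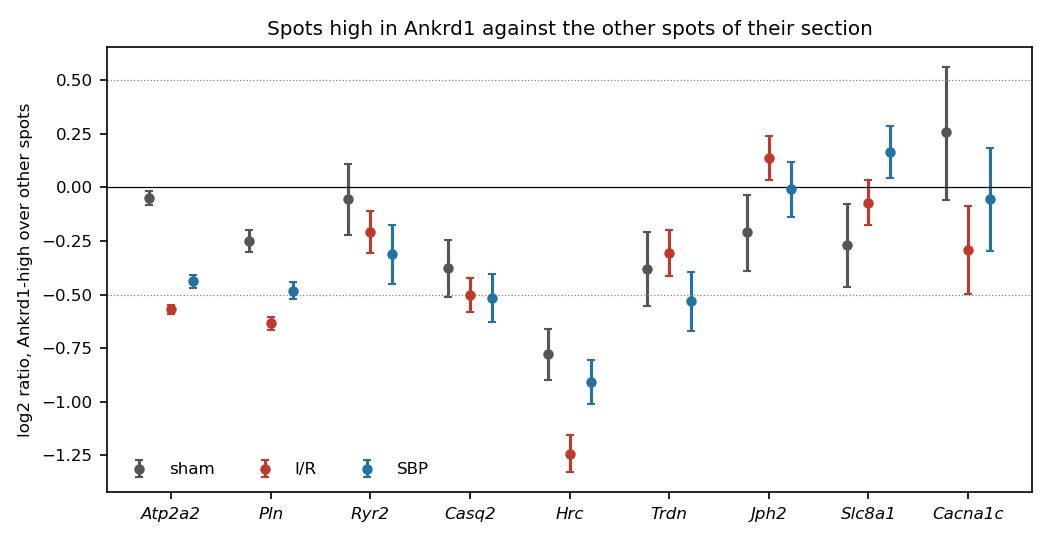
Log2 ratios of Ankrd1-high to other spots within the sham, I/R and SBP sections for 9 calcium handling genes, with 95% counting intervals and dotted lines at 0.5 in both directions. Hrc lies lowest in each section, and Jph2 and Slc8a1 lie near 0 in I/R, at 0.14 and -0.07.

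The spots of each section were also ordered by Ankrd1 and divided into 10 bins of near equal size. In I/R the level of Atp2a2 was 4339 CPM in bin 1, the lowest in Ankrd1, 3833 in bin 4, 3244 in bin 5 and 2377 in bin 10. Pln was at 2411 CPM in bin 1 and 1223 in bin 10, and Hrc at 461 and 145, with most of the difference between bins 4 and 8 for both. In SBP Hrc was at 502 CPM in bin 1 and 213 in bin 10. In sham it was at 614 CPM in bin 1, still at 460 in bin 9 and at 351 in bin 10, while Atp2a2 was at 4823 and 4189 in bins 1 and 10. Jph2 in I/R stayed between 115 and 139 CPM over the 10 bins, with its highest value in bin 10, and Slc8a1 in SBP was highest in bin 10 too, at 181 CPM.

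**Figure D4:**
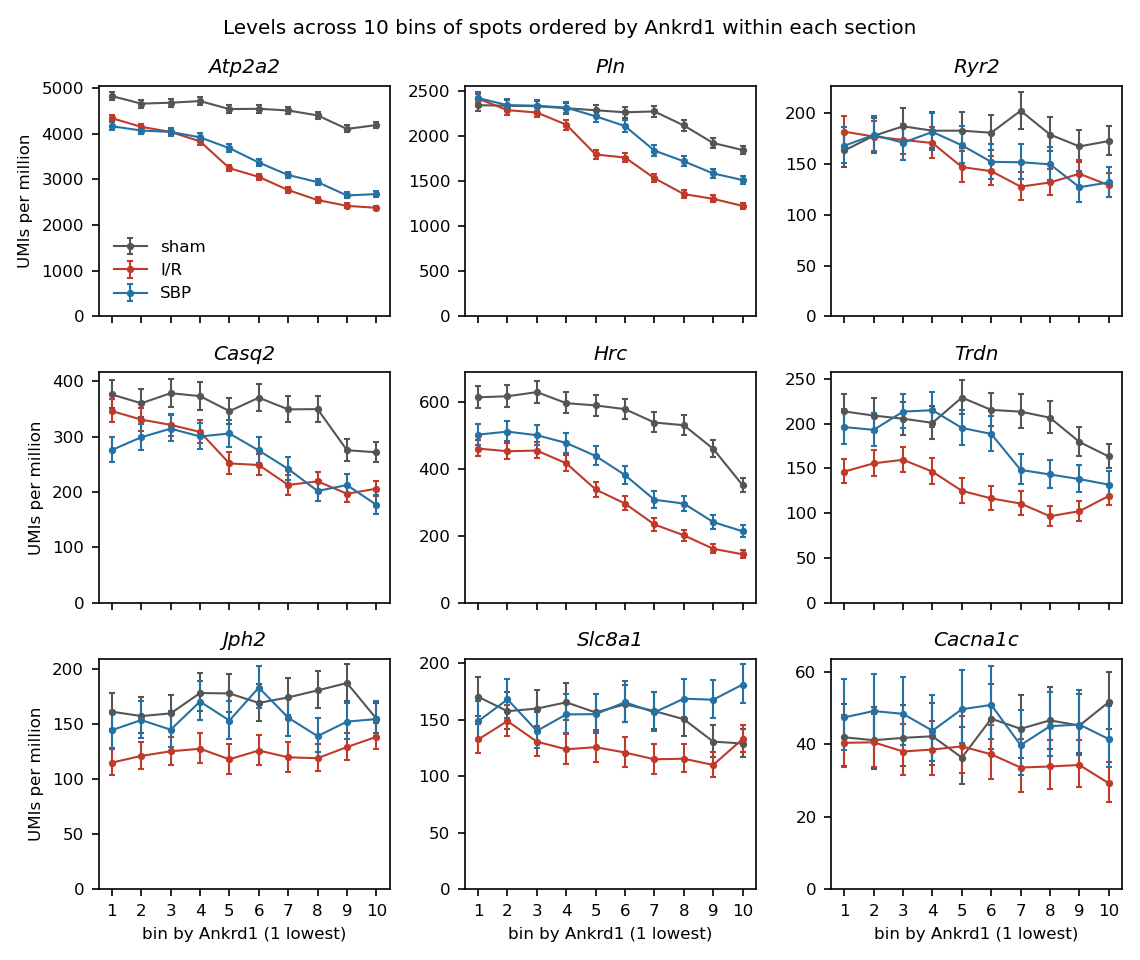
CPM of 9 calcium handling genes across 10 bins of the spots ordered by Ankrd1 within each section, lowest bin at the left, with 95% Poisson intervals. Atp2a2, Pln and Hrc decline toward the right in I/R and SBP, and Jph2 in I/R stays between 115 and 139.

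Between SBP and I/R the Ankrd1-high spots differed more than whole sections did for some genes. Slc8a1 was at 177 CPM in SBP and 121 in I/R, a log2 ratio of 0.54 (0.40 to 0.68). Hrc was at 223 and 156 CPM (0.52, 0.39 to 0.64), and Cacna1c at 44.7 and 31.2 CPM (0.52, 0.23 to 0.80), on 175 and 255 UMIs. These 3 genes of 9 were past 0.5 upward and 0 downward, where 2.13% of all 4927 genes were higher and 11.1% lower. Without the spots that were also high in the injury region genes, an alternative added after the values were seen, the ratios were 0.29 (0.09 to 0.49) for Slc8a1, 0.18 (0.01 to 0.35) for Hrc and 0.12 (-0.25 to 0.49) for Cacna1c, and 0 genes passed. With the 90th percentile of sham to set the Ankrd1-high spots 1 passed, Slc8a1 at 0.54, with Hrc at 0.49 and Cacna1c at 0.48. The share of all genes was not computed under these alternatives. In the other spots 0 genes passed 0.5 in either direction, where 1.61% of all 8624 genes were higher and 11.9% lower. There Trdn came nearest, at 186 CPM in SBP and 135 in I/R (0.46, 0.39 to 0.53). Relative to the cardiomyocyte reference UMIs the ratios within Ankrd1-high spots were 0.17 for Slc8a1, 0.14 for Hrc and 0.14 for Cacna1c, none of them past 0.5. In the Ankrd1-high spots the neutrophil list summed to 275 CPM in I/R and 266 with SBP, and the macrophage list to 1221 and 813. Their part in the result was not tested.

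The exchanger was also set against the pump within these spots. Slc8a1 had 66.3 UMIs per 1000 of Atp2a2 in Ankrd1-high spots of SBP (61.3 to 71.6) and 43.6 in the other spots (42.0 to 45.3). In I/R the values were 50.4 (47.3 to 53.8) and 35.7 (34.4 to 37.1), and in sham 29.5 (25.8 to 33.6) and 34.3 (33.2 to 35.5). Ankrd1-high spots thus held more exchanger transcript per pump transcript in both injured sections. In sham they held less. The separate intervals overlap slightly there, which does not show that the values were equal. Jph2 had 0.977 UMIs per Ryr2 UMI in Ankrd1-high and 0.769 in other spots of I/R, and 1.17 and 0.952 in those of SBP, without overlap of the intervals in either section.

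Ankrd1 does not mark all altered tissue, so the spots were also split by a list of injury region genes (Timp1, Spp1, Lgals3, Tgfbi, Anxa2 and S100a6), again at the 95th percentile of sham. This split was made after the values were seen. Injury-high spots were 784 in I/R (37.7%) and 358 with SBP (18.3%), and 323 and 134 of them were Ankrd1-high as well. Spots high in neither measure numbered 2042 in the sham, 1142 in the I/R and 1410 in the SBP section. In I/R the level of Atp2a2 was 4127 CPM in spots high in neither, 3212 in those high in Ankrd1 only, 1951 in those high in both and 1511 in those high in the injury genes only. Hrc was at 434, 204, 129 and 128 CPM in the same order, and Jph2 at 127, 125, 138 and 100. The cardiomyocyte reference genes took 3.77%, 2.91%, 2.18% and 1.68% of the UMIs, so their share moved with the levels of the pump.

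Relative to these reference UMIs, Atp2a2 had 1096 UMIs per 10000 in the I/R spots high in neither measure and 1105 in those high in Ankrd1 only, a log2 ratio of 0.01. Hrc had 115 and 70.2, a ratio of -0.72. In SBP the pair of ratios was -0.00 for Atp2a2 and -0.56 for Hrc, and in sham 0.44 and -0.26. In all 3 sections Hrc was thus lower beside the contractile genes in Ankrd1-high spots that were not injury-high, whereas the ratio of Atp2a2 was near 0 in both injured sections. That did not hold for injury-high spots. In I/R Atp2a2 had 893 UMIs per 10000 in spots high in both measures and 898 in those high in the injury genes only. In SBP it had 760 and 727, against 887 in spots high in neither. In sham it had 1308 and 1077, against 1061.

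The spots high in neither measure also differed between sections. Against sham, I/R was lower there in Jph2 by -0.45 (-0.52 to -0.37), in Trdn by -0.42 (-0.49 to -0.35) and in Hrc by -0.39 (-0.43 to -0.35). Atp2a2 was at -0.15 (-0.16 to -0.13), Ryr2 at -0.01 (-0.08 to 0.06) and Pln at 0.04 (0.02 to 0.06), and the median of 7948 genes was -0.07. The other buffer of the store, Casq2, was at -0.10 (-0.15 to -0.05), Slc8a1 at -0.18 (-0.26 to -0.11) and Cacna1c at -0.03 (-0.17 to 0.11). The intervals of Jph2, Trdn and Hrc lie below those of the other 6 genes in these spots. The cardiomyocyte reference genes took 4.31% of the UMIs of such spots in sham, 3.77% in I/R and 4.28% with SBP. Relative to them, I/R over sham was -0.25 for Jph2, -0.22 for Trdn and -0.20 for Hrc. The other 6 genes were then higher in I/R, by 0.01 (Slc8a1) to 0.23 (Pln). In the same spots SBP was above I/R in Trdn by 0.32 (0.25 to 0.40), in Jph2 by 0.30 (0.21 to 0.38) and in Slc8a1 by 0.22 (0.14 to 0.30), and below it in Casq2 by -0.20 (-0.26 to -0.15) and in Atp2a2 by -0.12 (-0.14 to -0.10). Hrc was at 0.03 (-0.02 to 0.08), and the median of 7355 genes was 0.08. Relative to the reference genes Trdn (0.14), Jph2 (0.11) and Slc8a1 (0.04) were higher in SBP, and Cacna1c was at -0.03. Casq2 (-0.39), Atp2a2 (-0.30), Ryr2 (-0.26), Pln (-0.22) and Hrc (-0.16) were then lower. Per all UMIs, the whole-section ratio of Atp2a2 for SBP over I/R, 0.08, and that of spots high in neither measure therefore had opposite signs. In spots high in both measures Hrc was at 0.72 (0.52 to 0.91) and Casq2 at 0.03 (-0.17 to 0.22). In those high in the injury genes only, Hrc was at 0.83 (0.65 to 1.01) and Casq2 at 0.45 (0.25 to 0.65). The medians of all genes in these 2 kinds of spots were -0.14 and -0.29.

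**Figure D5:**
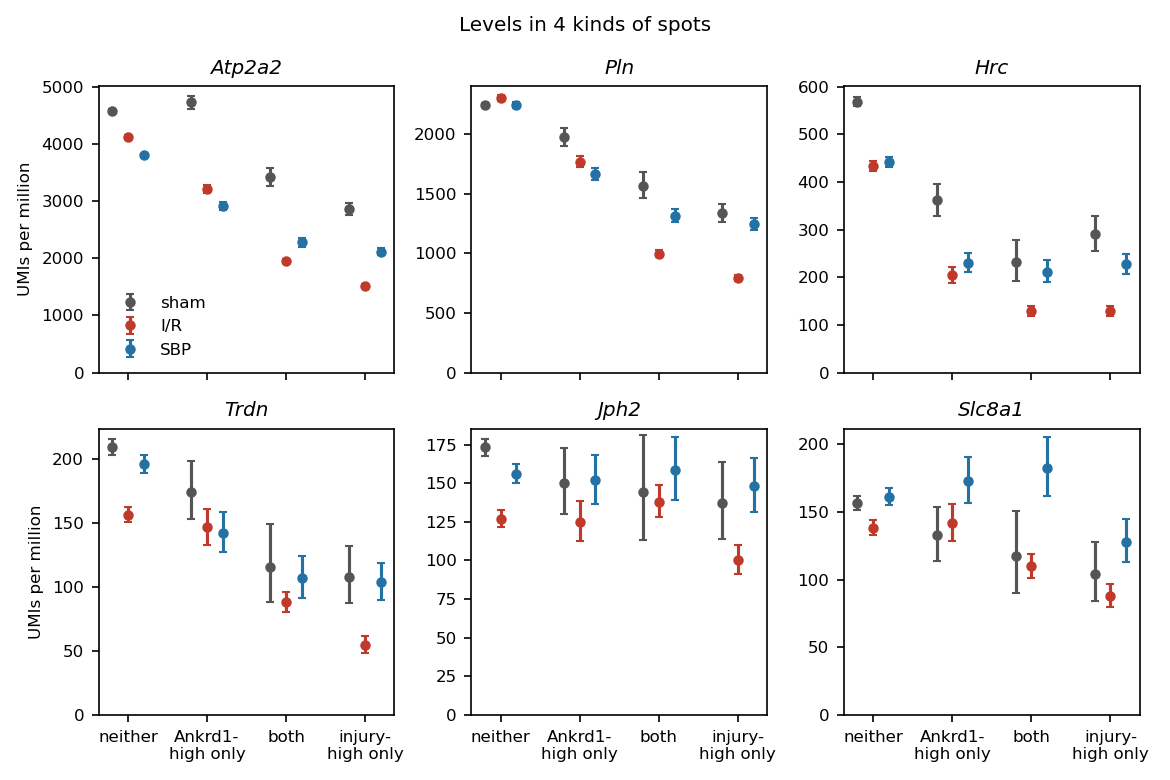
CPM of 6 calcium handling genes in spots high in neither Ankrd1 nor the injury region genes, in Ankrd1 only, in both, or in the injury genes only, with 95% Poisson intervals. In I/R Atp2a2 declines from 4127 to 1511 across the kinds and Jph2 stays between 100 and 138.

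To compare the spread over single spots at 1 depth, 6500 UMIs were drawn from each spot. Spots with fewer were dropped, 132 of them in the sham section, 202 in I/R and 213 with SBP. Atp2a2 had a median of 29 UMIs per spot in sham and of 23 in both injured sections. Its 5th percentile was 18 in the sham section, 4 in I/R and 11 with SBP, and the variance over the mean, which is 1 for counting noise alone, was 1.77, 4.44 and 2.34. The medians of the injured sections were equal, and the low tail was longer in I/R. At most 17 UMIs, a count that 4.52% of sham spots did not exceed, were found in 32.3% of the I/R spots (30.2% to 34.5%) and 22.6% of the SBP spots (20.7% to 24.6%). For Pln, at most 6 UMIs were found in 3.38%, 22.2% and 7.96% of spots, and no UMI of Hrc in 4.33%, 22.7% and 11.2%.

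The spots low in Atp2a2 were only in part Ankrd1-high, with 47.9% in I/R and 38.7% with SBP. In I/R the cardiomyocyte reference genes summed to 19703 CPM in the low spots and 36966 in the rest, the injury region genes to 4445 and 588, and the macrophage list to 2496 and 521. In SBP the reference genes summed to 33336 and 42482 CPM, the injury genes to 1849 and 525, and the macrophage list to 1064 and 501. Low spots of SBP were therefore closer to the rest of their section than those of I/R, in heart muscle genes as in macrophage genes. The blood list did not follow this order in I/R, at 3849 CPM in low spots and 4213 in the rest. This threshold too was chosen after the values were seen.

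The rarer transcripts were found in only some of the spots at this depth. Ryr2 had a UMI in 68.6% of sham, 59.9% of I/R and 63.3% of SBP spots, Trdn in 71.7%, 54.0% and 65.4%, and Jph2 in 67.4%, 54.8% and 63.0%. Slc8a1 had one in 62.9%, 55.1% and 63.6%, and Cacna1c in 23.8%, 20.6% and 25.6%. Without the drawing to 1 depth the shares by section (sham, I/R, SBP) were 83.1%, 77.1% and 75.6% for Ryr2, 84.8%, 73.2% and 75.5% for Trdn, and 82.0%, 77.0% and 78.0% for Jph2. They were 77.6%, 75.8% and 77.3% for Slc8a1, and 35.8%, 37.0% and 37.4% for Cacna1c. Sln, which ventricular muscle should lack, had a UMI in 1 of 2102 sham spots, 0 of 1880 in I/R and 0 of 1747 in SBP. At the common depth I/R was lowest for each of the 5 genes, as in the levels, while at the full depth of the spots, which was highest in I/R, Ryr2 was lowest in SBP and Cacna1c in sham.

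Over the spots of a section the summed UMIs of the 9 genes were most like those of contractile and energy genes, among genes with at least 0.5 UMI per spot. Atp2a2 and Pln held most of that sum in each section, in sham 112921 and 54770 of 208653 UMIs. The correlations of the sum therefore describe mainly these genes and not each of the 9. In sham, for instance, Jph2 had a correlation of 0.08 with Atp2a2. The highest Pearson correlations (log2 scale, per 10000 UMIs without mitochondrial genes) were with Slc25a4, the mitochondrial ADP/ATP carrier of muscle, in sham (r = 0.69) and in SBP (r = 0.82), and with the myosin light chain Myl2 in I/R (r = 0.93, 2082 spots). Myh6 was among the 3 most alike in each section. The lowest correlation in each section was with Actb, the cytoskeletal actin, at -0.59 in the sham section, -0.86 in I/R and -0.75 with SBP. Between 2 genes of the group the highest correlation was that of Atp2a2 and Pln, at 0.54, 0.88 and 0.71 by section (sham, I/R, SBP). The median over the 36 pairs was 0.08, 0.35 and 0.14. All spots of a section share 1 library, and counting noise lowers the values of the rarer genes.

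The wider calcium pathway was described by 60 other genes in 8 lists, of which 55 had enough UMIs in each comparison of whole sections. For I/R over sham, 3.66% of all 9640 genes were lower past 0.5 and 26.3% higher. Of the partners of the release unit, 1 of 11 was lower past 0.5 in I/R than in sham (Tmem38a, a potassium channel of the store, 211 against 137 CPM, log2 ratio -0.62) and 1 was higher (Bin1, which shapes the membrane tubules, 17.2 against 32.2 CPM, 0.91). Of the mitochondrial genes, Mcub, a subunit that dampens calcium uptake by mitochondria, was higher, at 4.54 CPM in sham and 10.6 in I/R (1.23, interval 0.92 to 1.55). Of the 10 signalling genes 1 was lower (Adrb1, the beta-1 adrenergic receptor, 21.8 and 14.5 CPM, -0.59). The lists of pump micropeptides (5 used) and of other channel subunits (4 used) each had 1 past 0.5, Sri (sorcin, 26.4 and 40.5 CPM, 0.62) and Cacna2d1 (89.3 and 59.8 CPM, -0.58), both named after their values were seen, and the plasma membrane and IP3 receptor list (8 used) had none.

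Of the sodium pump genes, whose products set the sodium gradient that drives the exchanger, Atp1b1 was higher by 0.09 and Fxyd1, which regulates the sodium pump, lower by -0.18 in I/R. Of the peptides that act on the calcium pump, Strit1, which relieves its inhibition, was at 36.8 CPM in the sham section, 27.4 in I/R and 29.2 with SBP, and Mrln had at most 15 UMIs in a section.

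Between SBP and I/R, Adrb1 (0.52, 0.33 to 0.72) and Tmem38a (0.43, 0.37 to 0.49) were higher in SBP, as were Pde4d (0.69, 0.40 to 0.98), a cAMP phosphodiesterase, and lower were Bin1 (-0.56) and Casq1 (-0.75), the skeletal calsequestrin, which rests on 77 and 181 UMIs. Counted by list, 2 of 10 signalling genes were higher past 0.5 and 2 of 11 release unit partners lower. Of all 9540 genes 1.75% were higher and 14.4% lower by the same rule. Against sham, the SBP section was higher in Mcub (1.07), Calr (0.50), the calcium-binding chaperone, and Adcy6 (0.46), and lower in Casq1 (-0.86) and Adcy5 (-0.42). Adcy5 and Adcy6 are the main adenylyl cyclases of the heart. Mcub thus stood above sham in both injured sections, on 114 UMIs in the sham section, 322 in I/R and 206 with SBP.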

How the data were processed

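Spatial transcriptomics was performed by the authors on cryosections of 3 mouse hearts. The deposited counts are UMIs per gene and spot over tissue, not normalized, made with Space Ranger, whose version is 1.3.0 per the file headers and whose build is mm10 per the labels. The paper gives another version and a human reference, while the deposited identifiers are mouse genes, of which 32158 were found in GENCODE M21 and 127 were not.

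Groups were taken from the labels. A spot needed 200 detected genes to be kept, which dropped 3 of sham, 1 of I/R and 2 of SBP. UMIs were summed over spots and divided by all UMIs (CPM), by UMIs without the mitochondrial genes, or by the UMIs of 9 cardiomyocyte reference genes. A ratio needed 200 UMIs in the 2 sets compared and was counted past a log2 ratio of 0.5. Levels have exact Poisson intervals and ratios exact conditional binomial ones, at the 95% level and for counting error only. Shares of spots have 95% Clopper-Pearson intervals, which take the spots of a section as independent draws, though such spots are not replicates. Depth was 21631280 to 30238530 UMIs per section, so Cacna1c, with 995 to 1109 UMIs a section, has the widest intervals of the 9 genes compared. With 1 section a group no p-value was computed.

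The genes and lists were chosen with earlier results of these data known. Named were the 10 genes, the 3 highest and 3 lowest of the other calcium genes in each comparison of sections, a few pump and sodium pump genes, the 3 genes most like the group over spots, and marker lists as sums. Some genes that this rule names are not reported here. Ratios of 2 genes, the split by injury region genes and the spots low in Atp2a2, Pln or Hrc were added after the values were seen. The ratios and their intervals were run on simulated Poisson counts with 200 changed genes. Those counts follow the law that the intervals assume and hold no variation between spots, sections or mice. The run therefore checks the computation only. Alternatives covered the denominator, TMM and median-of-ratios factors (computed from their formulas), the spot and gene filters, the weight of spots, the measure and threshold of Ankrd1, and the depth of thinning. The scripts ran in Python 3.11.15 with pandas 2.3.3, scipy 1.17.1, numpy 2.4.6 and, for plots, matplotlib 3.10.9.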

Additional observations from a re-analysis of the deposited data

Results flagged for a closer look

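For 2 genes the ratio of Ankrd1-high over other spots pointed one way in 1 section and the other way in another, with both counting intervals away from 0. Jph2 was lower in Ankrd1-high spots of sham (-0.21) and higher in those of I/R (0.14). Slc8a1 was lower in Ankrd1-high spots of sham (-0.27) and higher in those of SBP (0.17). Without mitochondrial UMIs the values of Jph2 in I/R (0.01, -0.10 to 0.11) and of Slc8a1 in SBP (0.09, -0.03 to 0.21) had intervals that include 0, so the opposite directions were then lost for both genes. With 1 section a group the difference between sections was not tested. The sham values rest on 274 UMIs of Jph2 and 237 of Slc8a1 in 112 spots. Without the spots high in the injury region genes the ratio of Jph2 in I/R was -0.02.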

How the results depend on the processing

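Of 630 ratios of single genes recomputed under an alternative, 343 stayed within the counting interval of the reported value, 287 did not, 79 had the other sign (36 of them relative to the cardiomyocyte reference genes), and none past 0.5 changed sign. The filters on spots changed few spots. Neither they nor leaving out the 1% of spots with most UMIs of a gene moved any of the 27 whole-section ratios beyond its interval. The filter on genes only sets which genes are counted. Its 27 ratios, which are among the 343, therefore equal the reported ones by construction. Of the 9 genes, those lower past 0.5 in I/R than in sham were 2, and became 4 without mitochondrial UMIs, 7 with TMM, 6 with median-of-ratios factors, 0 relative to the cardiomyocyte reference genes, 1 without spots high in atrial markers and 0 past 1. Those higher in SBP than in I/R were 0, and became 1 without mitochondrial UMIs, 2 with TMM and 1 with median-of-ratios factors. Of all genes 2.4%, 4.51% and 4.16% were higher under these settings, in the same order. Those lower in SBP than in sham were 0, and became 1 (Hrc) without mitochondrial UMIs, with TMM, with median-of-ratios factors, with equal weight for each spot and without the top 1% of spots. Of all genes 2.79% were lower without mitochondrial UMIs, 2.89% with TMM and 3.05% with median-of-ratios factors. Shares of all genes were not computed with equal spot weight, without the top 1% of spots, without atrial-marker spots or past 1.

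Lower in Ankrd1-high spots of sham was 1 gene, which became 0 relative to the reference genes and past 1, and 7 with the region set by the injury genes. In I/R the count of 4 became 1 relative to the reference genes, past 1, and with Ankrd1 per UMIs without mitochondrial genes, 2 without atrial-marker spots and without injury-high spots, and 7 with the injury region. In SBP the count of 3 became 5 without mitochondrial UMIs, 1 relative to the reference genes, 0 past 1 and 6 with the injury region. Relative to the reference genes 1 gene was higher in each section (Cacna1c in sham, Jph2 in I/R, Slc8a1 in SBP), where none was before. The reference genes took a smaller share of UMIs in Ankrd1-high than in other spots of each section. Dividing by them therefore raised the ratio of every gene, members or not. The shares of all genes were not computed under the alternatives of this paragraph. Within Ankrd1-high spots, the count of 3 higher in SBP than in I/R became 0 relative to the reference genes, past 1 and without injury-high spots, 1 without atrial-marker spots, with the 90th percentile and with Ankrd1 per UMIs without mitochondrial genes, and 5 with the injury region. The atrial markers were 95.1% to 98.6% Nppa by UMIs, and leaving out spots high in them removed 40.9% of the I/R and 39.0% of the SBP spots.

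TMM moved all ratios of I/R over sham by -0.22 and of SBP over I/R by 0.15. Genes detected in at least 200 spots gave background shares of 3.91% lower and 26.5% higher for I/R over sham. No paired analysis was possible because the labels give 1 section per group. Depth limits Cacna1c in Ankrd1-high spots, which rests on 96 to 255 UMIs, and Sln, which could not be compared. The cause of these shifts was not tested.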
